A study of Drosophila melanogaster with 2 samples.

Results

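The regions described are the ChIP peaks of tagged BuGZ at promoters that stand alone, that is, with no neighbouring gene starting back to back with them. Chromatin immunoprecipitation with sequencing (ChIP-seq) had been carried out on 1 group of 2 replicates. Both were whole Drosophila melanogaster embryos, of mixed sex, collected over 0 to 16 h, from a transgenic line that stably expressed CG17912 (BuGZ) with green fluorescent protein (GFP) at its C terminus, and the labels call them biological replicates. No untagged group was analysed here, the promoter that drives the fusion is not given in the sources used here, and a whole embryo mixes all of its tissues, so no peak can be assigned to a cell type. The description of each sample calls it an input control, while the antibody named for it, and a second alignment listed as the control behind its regions, fit an immunoprecipitate, and this conflict is not settled here. A peak was taken when its summit was at most 250 bp from the nearest annotated transcription start site (TSS), and this TSS had no TSS of another gene on the opposite strand within 1000 bp on its upstream side. This rule found 674 of the 2413 reproducible peaks, called single-promoter peaks below. The remaining promoter peaks, 683 in number, lay at divergent gene pairs, and 1056 peaks lay farther from any TSS. The 674 peaks sat at 672 TSS of 666 genes, of which 21 genes carried more than 1 peak and none more than 3. BuGZ itself has no single promoter by this rule and is not among them, and the nearest reproducible summit lay 256 bp from its TSS.

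A promoter is the stretch of DNA around a TSS where RNA polymerase II and its general factors assemble, and in flies many promoters are marked by short core elements such as the TATA box, the initiator, the TCT initiator of ribosomal protein genes, and the DNA replication-related element (DRE) bound by Dref and BEAF-32. At a divergent pair the DNA upstream of one gene is also the DNA upstream of the other, whereas at a single promoter upstream and downstream are distinct. BuGZ is a zinc finger protein, known from studies of human cells to be a partner of Bub3, a protein of the mitotic checkpoint, and to work at kinetochores and on the spindle.

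The DNA immediately upstream of the TSS is shown for 12 of these promoters. The first 8 are those of highest signal value among the promoters eligible for printing, whose 150 bases hold no annotated exon (Alg3, CG1888, px, lncRNA:CR44339 and Fkbp14, which rank among them by signal, are not printed), and the last 4 were added because they carry a DRE (eEF1gamma), motif 1 (RpL27), a TCT initiator (RpS27A, with Ip259 at the same TSS) or the word CAACACTG (RpL23A). Each line gives 150 bases on the strand of the gene, 5′ to 3′, ending at the base before the TSS, from the RefSeq copy of the Release 6 genome (dm6). Capitals mark exact matches to TATCGATA (DRE), GGTCACAC (motif 1), CAGCTG (E-box), ACACTG and CAACACTG on either strand, and to TATAAA on the strand of the gene at any distance.
CG14100 (chr3L:19590525-19590674, minus strand): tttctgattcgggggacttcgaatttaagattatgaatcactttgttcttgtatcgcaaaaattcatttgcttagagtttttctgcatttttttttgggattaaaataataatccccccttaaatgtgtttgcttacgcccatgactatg
lncRNA:CR31840 (chr2L:14024100-14024249, minus strand): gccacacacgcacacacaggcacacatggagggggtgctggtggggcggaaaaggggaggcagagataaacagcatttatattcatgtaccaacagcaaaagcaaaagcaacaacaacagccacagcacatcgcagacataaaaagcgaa
CG18549 (chr3R:12449146-12449295, plus strand): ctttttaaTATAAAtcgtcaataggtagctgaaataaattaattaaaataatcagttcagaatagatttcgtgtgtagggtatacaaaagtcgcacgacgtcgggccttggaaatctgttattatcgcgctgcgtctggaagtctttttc
Gapdh2 (chrX:15867995-15868144, plus strand): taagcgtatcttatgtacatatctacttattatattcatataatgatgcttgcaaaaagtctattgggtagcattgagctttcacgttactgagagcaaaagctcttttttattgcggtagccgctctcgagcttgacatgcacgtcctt
CG1635 (chr3R:31588523-31588672, plus strand): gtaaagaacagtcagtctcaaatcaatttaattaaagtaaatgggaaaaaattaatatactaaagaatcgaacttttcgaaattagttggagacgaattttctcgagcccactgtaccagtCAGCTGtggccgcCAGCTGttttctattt
lncRNA:CR31044 (chr3R:29214412-29214561, plus strand): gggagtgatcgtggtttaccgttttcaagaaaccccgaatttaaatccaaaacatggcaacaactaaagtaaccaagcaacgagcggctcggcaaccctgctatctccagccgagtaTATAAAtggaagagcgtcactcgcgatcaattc
yps (chr3L:12125151-12125300, minus strand): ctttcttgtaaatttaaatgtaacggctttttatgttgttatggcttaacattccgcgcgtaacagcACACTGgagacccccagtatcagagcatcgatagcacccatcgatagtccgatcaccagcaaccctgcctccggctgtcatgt
RluA-1 (chr2L:10474350-10474499, minus strand): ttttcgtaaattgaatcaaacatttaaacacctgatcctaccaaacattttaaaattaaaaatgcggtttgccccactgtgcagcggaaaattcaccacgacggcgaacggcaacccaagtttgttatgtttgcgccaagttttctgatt
eEF1gamma (chr3R:29220022-29220171, plus strand): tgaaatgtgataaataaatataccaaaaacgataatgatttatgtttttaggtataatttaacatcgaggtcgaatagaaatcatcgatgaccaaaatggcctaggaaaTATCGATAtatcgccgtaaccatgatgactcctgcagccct
RpL27 (chr3R:25685052-25685201, minus strand): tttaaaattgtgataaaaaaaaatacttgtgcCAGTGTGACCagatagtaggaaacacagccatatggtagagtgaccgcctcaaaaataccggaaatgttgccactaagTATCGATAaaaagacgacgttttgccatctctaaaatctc
Ip259 and RpS27A (chr2L:10408202-10408351, plus strand): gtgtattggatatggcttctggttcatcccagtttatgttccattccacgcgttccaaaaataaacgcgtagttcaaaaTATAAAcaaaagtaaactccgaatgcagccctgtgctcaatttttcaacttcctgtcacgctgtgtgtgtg
RpL23A (chr3L:1668655-1668804, minus strand): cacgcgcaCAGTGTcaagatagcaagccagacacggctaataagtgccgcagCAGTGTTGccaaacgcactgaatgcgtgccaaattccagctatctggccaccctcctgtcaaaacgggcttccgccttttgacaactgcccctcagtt

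These sequences had little in common by the marked letters, and 4 of the first 8 printed held no match at all. Alg3, not printed, had the DRE and the E-box letters within 100 bp of its summit. In CG1635 the E-box letters occurred in 2 places, starting 29 and 16 bases before the TSS. The DRE letters began at base -41 in eEF1gamma and at base -40 in RpL27, which also held motif 1 at base -116, sharing bases with a match to ACACTG. In lncRNA:CR31044 the TATAAA began at base -33, where a TATA box is usually found, whereas in CG18549 it began at base -142. A match describes the letters and is not a site shown to be bound. Over the 150 bases upstream, the DRE occurred in 5.49% of single-promoter peaks and 4.79% of all 23697 annotated TSS (each position and strand counted once), and motif 1 in 6.08% and 2.56%. The E-box letters occurred in 14.7% and 9.05%, ACACTG in 17.8% and 9.43%, and CAACACTG in 5.93% and 1.76%. For TATAAA the order was the other way, with 9.94% of single-promoter peaks and 17.7% of all TSS. All TSS here include those of divergent pairs. In a window around the TSS, the DRE occurred at 6.82% of single-promoter peaks and 3.05% of single TSS without a peak.

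The strongest single-promoter peaks belonged to genes of very different function. CG14100 on 3L (chr3L:19590464-19590784, summit at base -104) had the highest signal value of the reproducible list, 1538, and was region 1 in the ranking of each replicate, with signal values of 890.3 in replicate 1 and 659.7 in replicate 2, the highest of each list. Signal values are the authors' and are on a scale of their own in each list, so replicates are compared by rank. lncRNA:CR31840 on 2L followed with a signal value of 1100, a summit 20 bp downstream of its TSS and rank 3 in both replicates (signal values 653.2 and 456.2). Alg3, a mannosyltransferase of protein glycosylation, came next with 999, at rank 2 in replicate 1 and 13 in replicate 2 (661.1 and 342.5). CG1888 (753), CG18549 (746) and Gapdh2 (711) followed in that order. Gapdh2, a glycolytic dehydrogenase, stood higher in replicate 2 (rank 7, signal value 422.7) than in replicate 1 (rank 35, 292.5). The first 10 were completed by px, a gene named for its wing vein phenotype (630.1), CG1635 (610), lncRNA:CR31044 (550.3) and yps, which encodes a Y-box protein that binds RNA (545).

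The other 15 of the 25 strongest lay at lncRNA:CR44339, the endoplasmic reticulum prolyl isomerase gene Fkbp14, RluA-1, the 7SK RNA gene snRNA:7SKa, RpS4, CG3764, the germline differentiation gene bgcn, Sesn with CG46429, Regnase-1, RpL24, eEF1gamma, lncRNA:CR44810, the ABC transporter gene E23, the neuronal gene elav with lncRNA:enrr, and RpL23A. Their signal values ran from 372 at RpL23A to 489 at lncRNA:CR44339. Of all 25, 20 had their summit upstream of the TSS and 14 more than 100 bp upstream. Only snRNA:7SKa (228 bp) and bgcn (162 bp) lay more than 100 bp downstream. The replicates placed the summit within 50 bp of each other at 24 of the 25, the exception being Regnase-1 with -88 bp in replicate 1 and -143 bp in replicate 2. CG3764 was the 1 peak whose summit was on different sides, at -15 and 14 bp. In rank, 18 of the 25 were within the first 100 regions of both replicates. The other 7 had a rank between 102 and 208 in 1 of the replicates, among them RpL23A (rank 47 in replicate 1, 208 in replicate 2), E23 (179 and 46) and elav (197 and 44).

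**Figure D1:**
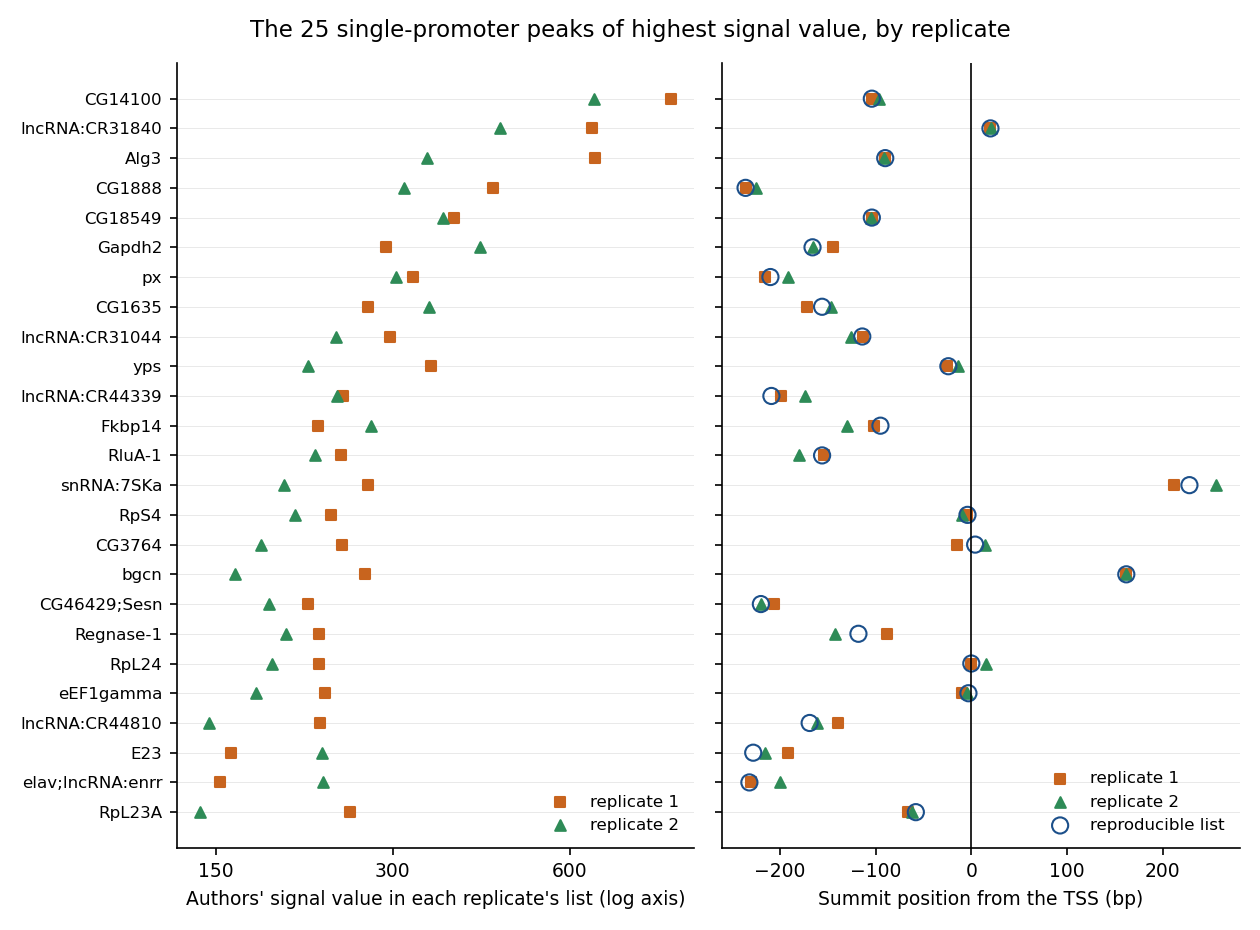
The 25 single-promoter peaks of highest signal value, strongest at the top. The left panel gives the authors' signal value in the list of each replicate on a log axis (squares replicate 1, triangles replicate 2), and the right panel the summit position from the TSS in bp (negative is upstream, open circles the reproducible list). CG14100 is highest in both replicates, and the summits of the replicates lie within 50 bp of each other in all rows but Regnase-1.

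Over all 674 peaks the summits lay mostly upstream of the gene. The median position was -50 bp, with quartiles at -123.75 and 4 bp. Upstream summits numbered 494 (73.3%, 95% Wilson interval 69.8 to 76.5), against 177 downstream and 3 at the TSS itself. The fullest 50-bp bin was that just upstream of the TSS, with 159 peaks (23.6%), followed by the next one out with 120 (17.8%) and the first downstream bin with 105 (15.6%). More than 100 bp away, 215 peaks lay upstream and 46 downstream. For 547 of the 674 the summit is the middle of the interval, whose median width was 336 bp, so these positions are coarse, as are the sonicated fragments of 200 to 800 bp behind them, and 507 intervals (75.2%) covered the TSS.

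The comparison for this position was with weak regions at the same kind of promoter. Of 1423 candidates at single promoters ranked below 15000 of the 30000 in the pooled list, 716 (50.3%, Wilson interval 47.7 to 52.9) had their summit upstream, with a median of -2 bp. The odds ratio was 2.71 (95% Woolf interval 2.22 to 3.31), with p = 5.95e-24 by Fisher's exact test over regions, two-sided. Taking the 2413 strongest regions of each replicate alone, the upstream share was 75.7% of 658 regions at single promoters in replicate 1 against 50.5% of its low-ranked regions (p = 4.51e-27, Fisher's exact test). In replicate 2 it was 67.5% of 710 against 52.3% (p = 1.71e-11, Fisher's exact test). Regions are not replicates of the experiment, and with 1 group of 2 samples no test over samples was possible. The excess of upstream summits over all promoter peaks was known before single promoters were set apart, so the test above is not independent of it. At divergent pairs 75.7% of the 683 peaks were upstream of the nearer TSS, with a median of -38 bp, but there the upstream side is shared.

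**Figure D2:**
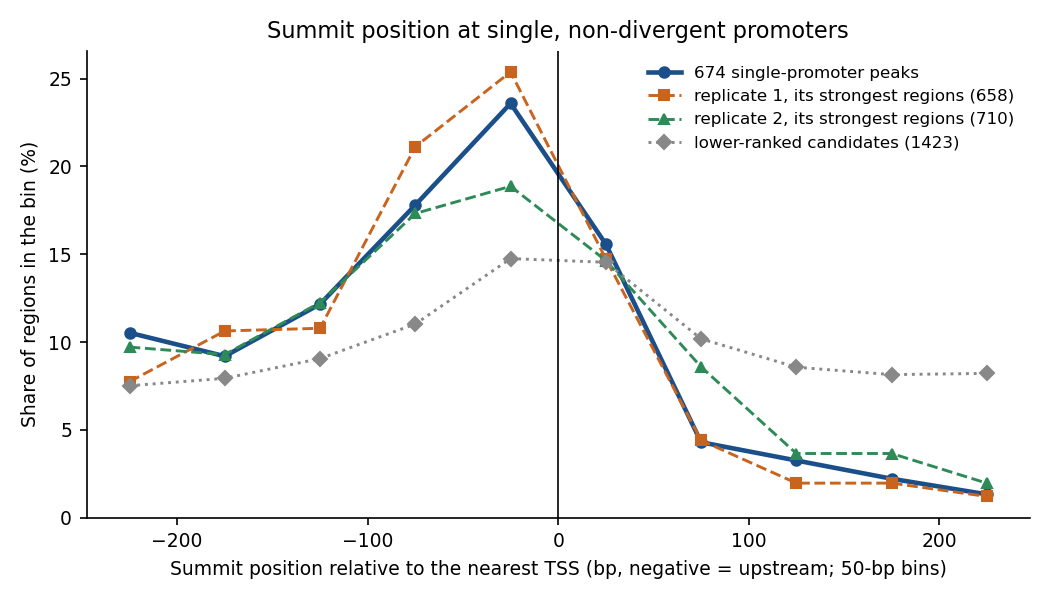
Share of regions (%) by summit position relative to the nearest TSS in 50-bp bins (negative is upstream), for the 674 single-promoter peaks, for the strongest regions of each replicate and for 1423 lower-ranked candidates at single promoters. The peaks and both replicates have their highest bin just upstream of the TSS and fall off steeply downstream, while the lower-ranked candidates reach 14.8% at most and are spread over both sides.

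The replicates placed most summits on the same side of the TSS, while the rank of a region could differ widely between them. A region of the replicate's own list lay within 200 bp of 661 of the 674 summits in replicate 1 and of 672 in replicate 2. By these regions 75.04% of summits were upstream in replicate 1 (median -53 bp) and 71.1% in replicate 2 (median -52.5 bp). At the 659 peaks with a region in both, the summits differed by a median of 29 bp, 469 pairs (71.2%) lay within 50 bp, and 569 (86.3%) were on the same side, 437 of them upstream. Matching within 200 bp limits how far the summits could differ. Among the 2413 strongest regions of a replicate were 521 of the 674 in replicate 1 and 503 in replicate 2. Both replicates held 371 of them there, and neither held 21. The worse of the 2 ranks was at most 2 times the better at 322 of 659 peaks (48.9%) and more than 10 times at 33. One of these was lncRNA:CR46036 (signal value 289), ranked 74 in replicate 2 and 11984 in replicate 1.

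Peaks of higher signal lay farther upstream. In the strongest 225 peaks (signal values 155 to 1538) the median position was -91 bp, 82.7% were upstream and 48% were more than 100 bp upstream. The middle 224 had a median of -38.5 bp, with 69.2% upstream and 27.7% beyond 100 bp. In the weakest 225 (signal values 101 to 120) the median was -28 bp, with 68% upstream and 20% beyond 100 bp. The replicates' own summits also put the strongest class farthest out, with a median of -89 bp in each replicate, against -43 and -38.5 bp in the middle class and -37 and -39 bp in the weakest. The middle and weakest classes were thus alike in both, and in replicate 2 their order was the other way. The part of summits within 50 bp of the TSS was 27.1% in the strongest class, 44.6% in the middle and 47.1% in the weakest.

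**Figure D3:**
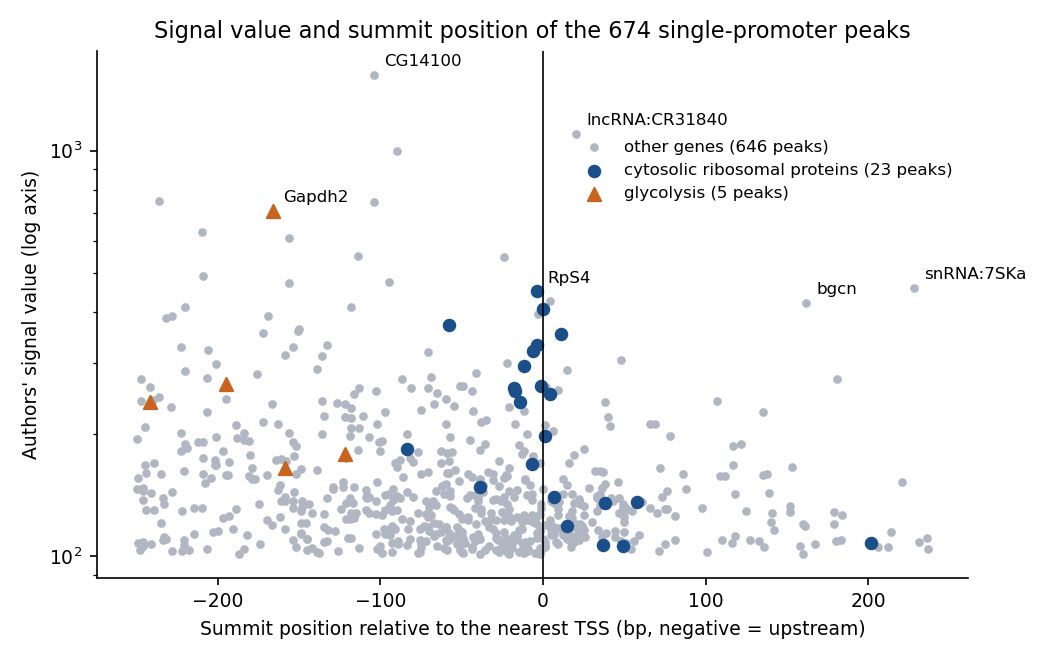
The authors' signal value (log axis) of each of the 674 single-promoter peaks against its summit position from the nearest TSS (bp, negative is upstream), with the 23 peaks at cytosolic ribosomal protein genes and the 5 at glycolysis genes coloured. Ribosomal protein peaks cluster at the TSS, the glycolysis peaks all lie between -242 and -122 bp, and few peaks of high signal lie downstream.

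No difference in strength between single-promoter peaks and those at divergent pairs was detected. Their signal values had a median of 134.3 (quartiles 114 and 172), against 134.6 (quartiles 114 and 177) at divergent pairs. The part at or above the median signal of the reproducible list was 50.1% and 50.5% (odds ratio 0.986, Woolf interval 0.797 to 1.22, p = 0.914 by Fisher's exact test). With a window of 100 bp around the TSS single-promoter minus divergent was -6.23 percentage points (p = 0.0574 by Fisher's exact test). The part within 200 bp of a top region of both replicates was 56.4% and 57.4% (odds ratio 0.959, interval 0.774 to 1.19, p = 0.742 by Fisher's exact test). Any top region within 200 bp counted here (380 single-promoter peaks), whereas the 371 above were counted by the rank of the nearest region. Odds ratios within these intervals, in either direction, remain compatible with these counts of regions.

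Of all 12804 genes with a single promoter, 666 (5.2%) carried a peak there, and this share is the background for the gene groups below. It was 5.09% with the strongest regions of replicate 1 and 5.46% with those of replicate 2, and 6.64% among the 9329 protein-coding genes. Groups are described by their counts, with no test, and since the lists were drawn up with results of these data known, a high count is not independent evidence.

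Genes of the cytosolic ribosome, which makes all cellular protein, had a peak at 22 of their 40 single promoters (55%, Wilson interval 39.8 to 69.3). The count was 20 with replicate 1 and 24 with replicate 2. Some of the 93 genes in the list are paralogs. RpS4 led with a signal value of 450.4 (ranks 67 and 64 in replicates 1 and 2), then RpL24 with 407 (75 and 80), RpL23A with 372 and RpS10b with 354 (154 and 132). Of the 23 peaks, 15 were among the strongest 225. Their summits sat at the TSS: the median was -1 bp and 19 of 23 were within 50 bp, against 39.6% of all 674. RpL24 had its summit exactly at the TSS, RpL37A at -1 bp and RpS4 at -4 bp. The replicates differed in the side of the summit here, with medians of -9 bp in replicate 1 and 11 bp in replicate 2, and 68.2% and 39.1% upstream. Among the peaks farther from the TSS were RpS9 (-84 bp), RpL23A (-58 bp) and a second, weaker peak 202 bp downstream of RpS27A. In replicate 2 a single region, 196 bp downstream, stood for both RpS27A peaks. Not all were strong in both replicates: RpS3A, on chromosome 4, had no region in the list of replicate 1, and RpS9 ranked 342 in replicate 2 but 12231 in replicate 1. The TCT initiator was found at 6 of the 23, against 2.23% of all 674. Both RpS27A peaks, with the same TSS, are among these peaks.

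Glycolysis genes had the highest share of any list, 5 of 8 (62.5%, Wilson interval 30.6 to 86.3), in the reproducible list and in each replicate. All 5 peaks were among the strongest 225. The summit lay upstream at each, at -166 bp for Gapdh2, -195 bp for enolase (Eno), -242 bp for phosphoglycerate kinase (Pgk), -122 bp for the hexokinase gene Hex-A and -159 bp for lactate dehydrogenase (Ldh). In the replicates' own lists the 5 summits ran from -247 to -110 bp and from -242 to -106 bp, so none came within 50 bp of the TSS, where most ribosomal protein peaks lay. Signal values after Gapdh2 were 266 for Eno, 240.3 for Pgk, 178 for Hex-A and 164.5 for Ldh. Ldh was far stronger by rank in replicate 2 (382) than in replicate 1 (2333).

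Translation factor genes had peaks at 7 of 30 single promoters (23.3%, interval 11.8 to 40.9), 7 in each replicate as well. They were led by the elongation factors eEF1gamma (signal value 395, ranks 71 and 106), eEF2 (288) and eEF1alpha1 (198) and by eIF2A (197), and had a median position of -15 bp. Genes of oxidative phosphorylation had 6 of 45 (13.3%, interval 6.26 to 26.2), with the ATP synthase subunit ATPsynO at 170 and the complex III genes UQCR-Q and UQCR-C2 at 162 and 140 in signal value, and 5 of the 6 summits within 50 bp of the TSS. The proton pump of the vacuole had 3 of 20 (15%), at Vha68-2, Vha16-1 and VhaM9.7-c, all upstream. Mitochondrial ribosomal proteins had only tko, 1 of 16 (6.25%), with 2 in each replicate, close to the background share.

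Insulator and promoter factor genes had 3 of 10 (30%, interval 10.8 to 60.3), with 3 in replicate 1 and 5 in replicate 2. They were Trl, which encodes GAGA factor, lolal and mod(mdg4). Their summits were all downstream of the TSS, at 125, 76 and 214 bp, and were so in both replicates, from 51 to 95 bp in replicate 1 and from 73 to 206 bp in replicate 2. This is unlike the 73.3% of all peaks that lay upstream, but it rests on 3 peaks, and the replicates placed that of mod(mdg4) at 51 and 206 bp. Signal values were low, between 114 and 145.

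The developmental and remaining housekeeping lists with any peak had small counts. Their shares were above the 5.2% of all single-promoter genes, only slightly so for muscle genes, but rest on few genes. Segmentation and Hox genes had 4 of 31 (12.9%), at the heart gene tin (signal value 195), the maternal head determinant bcd (159), hry (149.7) and cad (128), with 2 rather than 4 in replicate 2. Vesicle trafficking genes had 5 of 41 (12.2%), led by the COPII gene Sar1 (139) and the exocyst gene Sec10 (131). Cell cycle genes had 3 of 18 (16.7%, 2 in each replicate), namely CycB3 (160.2), E2f1 with 2 peaks (129 and 115) and Dp (103). Chaperones had 2 of 18 (11.1%), Hsp27 (139) and Hsc70-3 (102), with 1 in replicate 1 and 3 in replicate 2. Neuronal genes had 2 of 18 (11.1%), elav (386) and Syx1A (112), with 3 in replicate 1. The mitochondrial PheRS-m was the 1 of the 11 listed aminoacyl-tRNA synthetase genes (9.09%, 2 in replicate 2) and Tm1 the 1 of 17 muscle genes (5.88%). A further synthetase gene, beta-PheRS, had a peak at -21 bp (signal value 144.4) but is not in the list.

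Several groups had no or almost no peak. None was found at the listed 26 proteasome, 23 histone, 20 tubulin and spindle or 12 Polycomb and trithorax genes with a single promoter. Nor was any found at the listed 10 mitochondrial import, 9 checkpoint and kinetochore, 5 nuclear pore, 5 splicing factor or 159 chemoreceptor genes. These lists are not complete. Peaks lay at the related genes Trl, counted above with the insulator genes, and Kdm5 (signal value 126), Rae1 (154) and msd1 (109), which none of these lists holds. With lists this small a count of 0 still allows a share of up to 12.9% for the proteasome, 29.9% for checkpoint and kinetochore genes and 43.4% for nuclear pore and splicing genes (upper Wilson limits), but no more than 2.36% for chemoreceptors. Polycomb and trithorax genes were not empty in the replicates taken alone, with 3 of 12 in replicate 1 and 2 in replicate 2. In replicate 2, 2 of the 20 tubulin and spindle genes and 1 of the 5 splicing factor genes also had a peak. The list of long noncoding RNA genes was the ncRNA class of the annotation, which also holds microRNA genes such as mir-34. It had 39 of 2640 (1.48%, interval 1.08 to 2.01), below the background share of 5.2%. Even so, 5 of the 25 strongest peaks lay at its genes, counting lncRNA:enrr, which shares its TSS with elav. tRNA genes had 2 of 193, tRNA:Thr-AGT-1-4 (signal value 192) and tRNA:Pro-AGG-1-1 (129.7), and snoRNA genes 2 of 242, snoRNA:185 (116) and snoRNA:Me18S-C1968 (110.2). The snoRNA count rested on replicate 2, with 0 in replicate 1 and 6 in replicate 2. Outside every list were 567 of the 674 peaks, and 140 (20.8%) lay at genes known only by a CG number.

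**Figure D4:**
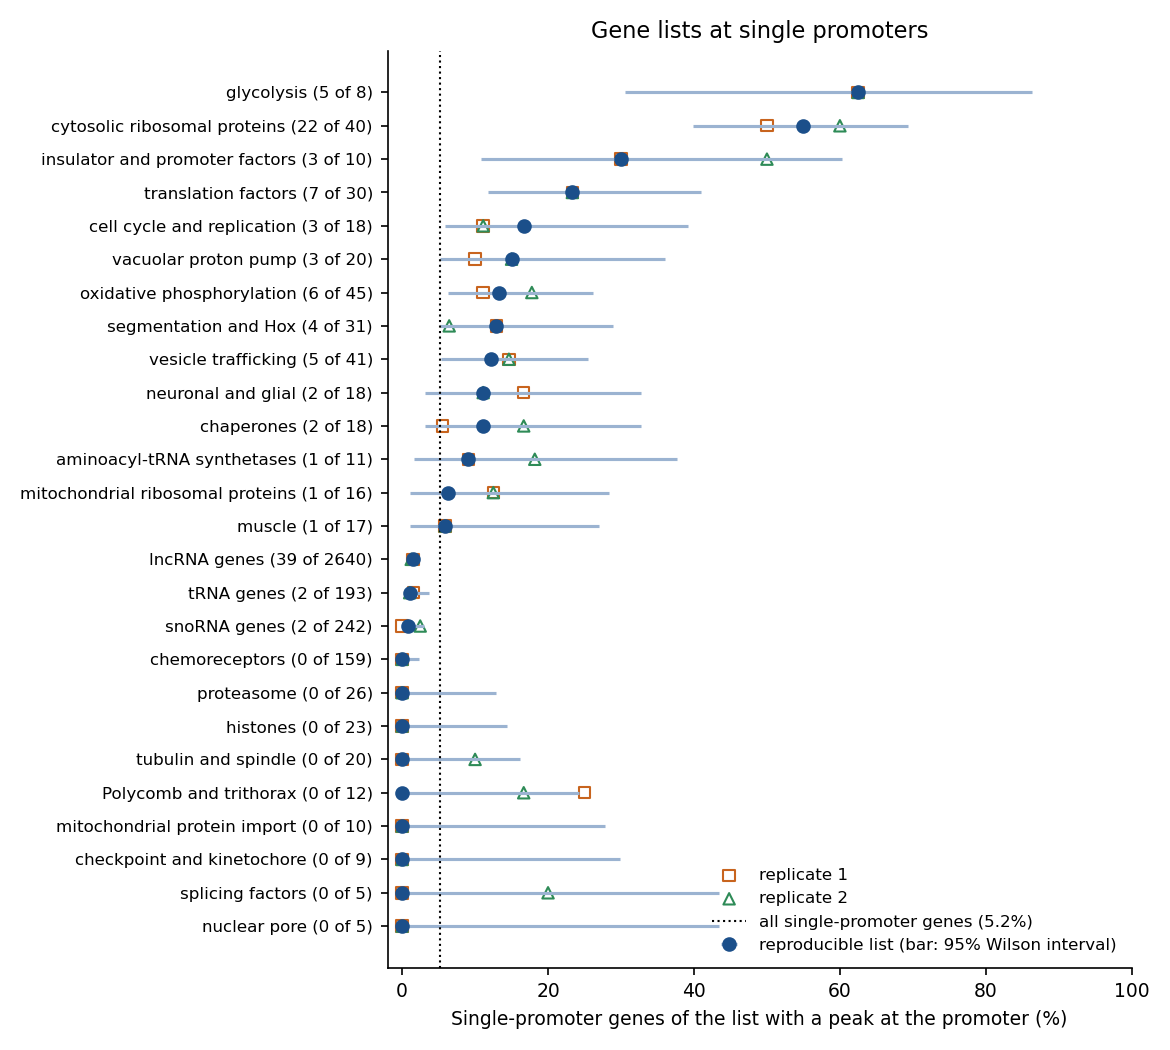
Share of the single-promoter genes of each list that carried a peak at the promoter (filled circles, with 95% Wilson intervals), with the share from the strongest regions of each replicate (open squares and triangles) and the 5.2% of all single-promoter genes as a dotted line. Glycolysis and cytosolic ribosomal protein genes lie above 50%, and 9 lists are at 0. The list labelled lncRNA genes is the ncRNA class of the annotation, microRNA genes included.

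Single promoters with a peak also differed from single promoters at large in what surrounded them. The nearest gene was protein-coding at 93.5% of the peaks, against 78.1% of all 16205 single TSS. An upstream gene on the same strand that ended within 1000 bp, a head-to-tail arrangement, was found at 278 peaks (41.2%) and at 32.7% of all single TSS. Fewer lay inside another gene, 14.2% against 27.0%. Genes with only 1 annotated TSS made up 46.9% of the peaks and 60.2% of all single TSS, and at these the upstream share was 78.5%. By chromosome the 674 peaks fell as 164 on 3R, 145 on 2R, 140 on 3L, 125 on 2L, 90 on X and 10 on chromosome 4, with none on Y. The X held 13.4% of the peaks and 16.7% of the single TSS, and chromosome 4 held 1.48% and 0.808%. Chromosome 4 rested on replicate 2: 8 of its 10 peaks, RpS3A and CaMKI (signal value 220.5) among them, had no region in the list of replicate 1, out of 13 such peaks in all. Of the 30000 candidates in each list, 91 lay on chromosome 4 in replicate 1 and 583 in replicate 2. No test was made of these shares.

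Motif frequencies differed between single-promoter and divergent peaks. Of 23 motifs, 8 (34.8%) differed in frequency between the 674 and the 683 peaks at an adjusted p under 0.05 (two-sided Fisher's exact test, Benjamini-Hochberg over the 23). Motifs were sought within 100 bp of the summit on both strands, except core elements, which were sought at the nearest TSS on the strand of the gene. The same windows at lower-ranked candidates at single promoters are given as the background. No such background is given for divergent pairs. The differences therefore cannot be told apart from differences between single and divergent promoters at large. The odds ratio farthest from 1 was that of the initiator, the core element read by TFIID (TCAGT with its A within 5 bp of the TSS). It was present at 83 of 674 (12.3%, Wilson interval 10.05 to 15.01) and at 24 of 683 divergent peaks (3.51%), an odds ratio of 3.86 (adjusted p = 2.58e-08, Fisher's exact test). The background had more of it, 16.0%, and single TSS without a peak 11.2%. GAGA letters (GAGAG), the site of GAGA factor, were more frequent too, 32.3% against 19.9% (adjusted p = 2.21e-06, Fisher's exact test), with 30.8% in the background. The CA repeat (CACACA) occurred at 22.3% and 15.1% (adjusted p = 0.00368, Fisher's exact test), with 21.9% in the background.

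The 5 motifs that were rarer at single promoters included those of housekeeping core promoters. Motif 7 (CATCNCTA) was found at 4.01% of single-promoter and 10.8% of divergent peaks (odds ratio 0.343, adjusted p = 1.07e-05, Fisher's exact test), with 1.97% in the background. The DRE was found at 6.08% and 12.4% (odds ratio 0.456, adjusted p = 3.01e-04, Fisher's exact test), with 2.67% in the background. The core site of BEAF-32 (CGATA), which the DRE contains, was found at 39.3% and 48.2% (adjusted p = 0.00397, Fisher's exact test), with 29.2%. The palindrome of nuclear respiratory genes (TTANNTAA) reached 11.1% and 16.8% (adjusted p = 0.00947, Fisher's exact test), with 9.21%, and the AT-rich word AAATTT 21.5% and 27.7% (adjusted p = 0.0279, Fisher's exact test), with 14.3%. For these 5 the single-promoter value lay between the background and the divergent value. At least 1 of the DRE and motifs 1, 6 and 7 was near 161 single-promoter peaks (23.9%), 36.7% of divergent peaks and 13.2% of the background. GC content within the windows was 42.5% ± 7.89 (SD over 674 peaks), 39.5% ± 7.20 at divergent peaks and 45.3% ± 7.93 in the background, and its part in these differences was not tested. The GAGA call held under all 11 other settings tried and the initiator call under the 9 that could change it. Above the middle rank of the list the DRE and motif 7 missed the threshold (adjusted p = 0.0859 and 0.0630 by Fisher's exact test), and the nuclear respiratory palindrome and the AT-rich word missed it under 6 and 5 of the 11. Motif 7 also lost its call when the strongest regions of replicate 2 were used (adjusted p = 0.0982 by Fisher's exact test).

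The other 15 motifs did not pass the threshold. Motif 1 (GGTCACAC) occurred at 7.27% of single-promoter peaks, 9.52% of divergent peaks and 3.51% of the background (adjusted p = 0.274, Fisher's exact test, odds ratio 0.745). The TCT initiator (TCTTT with its C within 5 bp of the TSS) occurred at 2.23%, 3.95% and 2.04%. In the regions of replicate 2 taken by themselves, both passed, as rarer at single promoters (adjusted p = 0.0432 and 0.00371 by Fisher's exact test). The E-box CAGCTG was level at 18.0% and 18.0%, with 13.3% in the background, and so were motif 6 (GTATNTTT) at 10.8% and 9.52%, with 6.75%, and motif 8 (GGCANCG) at 12.5% and 10.8%, with 11.5%. The Pho core (GCCAT) occurred at 30.1% and 31.6%, with 33.7%. The TATA box (TATAAA starting 45 to 20 bp before the TSS) was near-absent from both, 2.82% and 2.49%, while the background had 5.76% and single TSS without a peak 7.68%. The Myc E-box CACGTG (3.26%, 4.98%, background 2.88%), the su(Hw) core TGCATAC (3.41%, 3.51%, 1.83%), the ETS word CCGGAAG (1.93%, 0.732%, 1.48%) and the CTCF core AGGTGGCG (1.63%, 1.46%, 0.632%) were rare everywhere. So were the Ewg site GCGCATGC (0.890%, 0.878%, 0.984%), the cyclic AMP response element TGACGTCA (0.890%, 0.586%, 0.141%), the E2F site TTTCCCGC (0.890%, 1.17%, 0.843%) and the Zelda site CAGGTAG (0.742%, 0.439%, 1.26%).

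**Figure D5:**
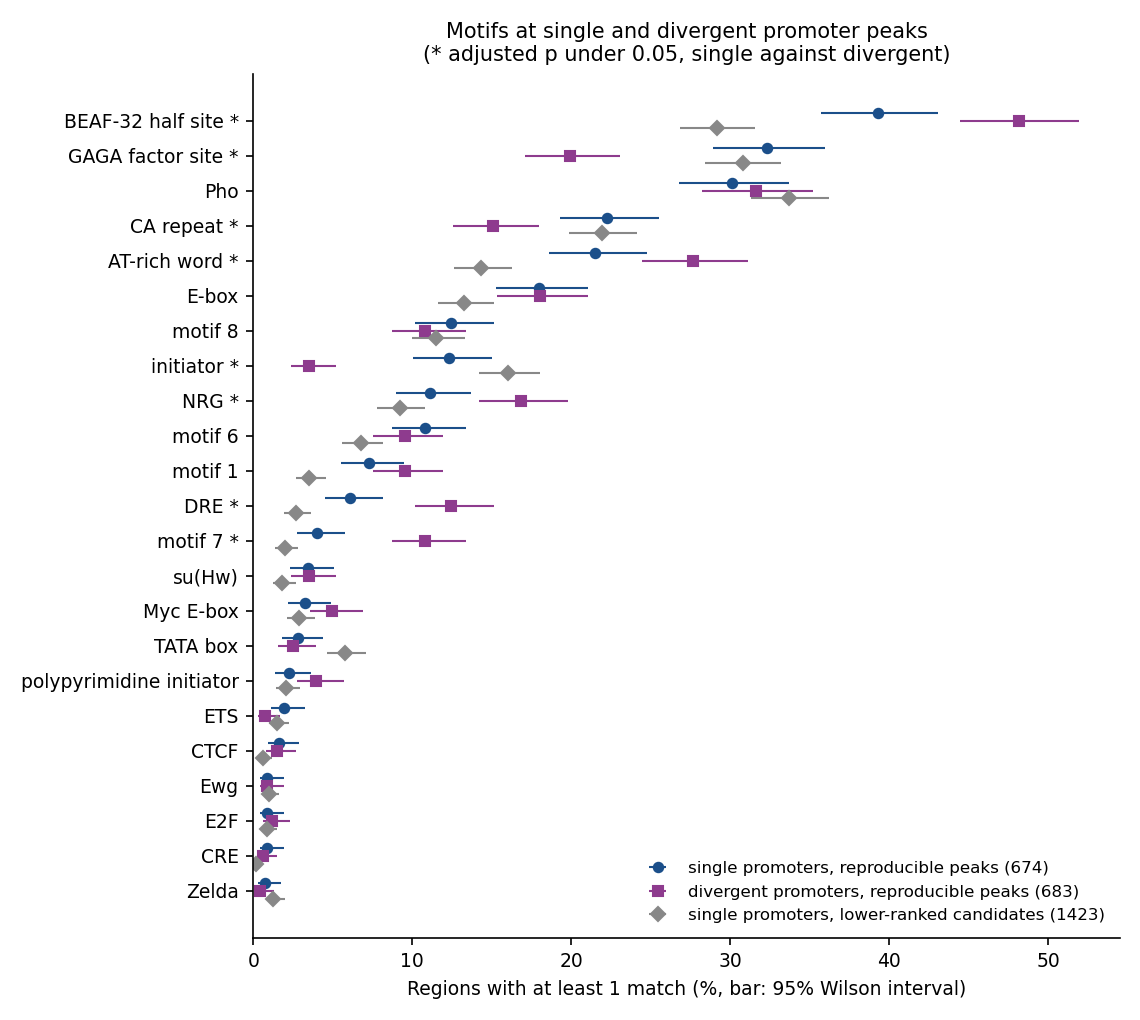
Share of regions with at least 1 match to each of 23 motifs (%, bars are 95% Wilson intervals) at single-promoter peaks, divergent promoter peaks and lower-ranked candidates at single promoters. NRG is the palindrome of nuclear respiratory genes, the polypyrimidine initiator is the TCT initiator, and the BEAF-32 site is CGATA. An asterisk marks the 8 motifs with an adjusted p under 0.05 between single and divergent peaks. The initiator, GAGA factor site and CA repeat are higher at single promoters, and the other 5 are higher at divergent ones.

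The summit lay farther upstream where the promoter had an initiator. At the 83 peaks whose promoter had an initiator the median position was -109 bp, against -44 bp at the others. By the replicates' own summits it was -110 and -105 bp. The strongest of them was CG1888 at -236 bp. At the 15 peaks with a TCT initiator, of which 6 were the ribosomal protein peaks above, the median was -6 bp, and -28 and -2 bp in the replicates. Both RpS27A peaks are among them and share the same initiator. Both elements were sought at the annotated TSS nearest the summit, so at genes with several TSS the summit decided which was searched. No test was made. Positions are not given for those of the 23 motifs sought around the summit, since that search favours summits near the motif.

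A count of all 2080 words of 6 bases, from 150 bp upstream to 50 bp downstream of the TSS, was made against the 15434 single TSS with no peak. The greatest excess was that of ACACTG, at 26.4% of single-promoter peaks and 11.3% of the rest. After it came AGTGTG (24.3% and 13.0%), CGATAG (18.1% and 8.43%), the E-box CAGCTG (20.2% and 10.7%), CAACAC (20.2% and 10.8%) and AACAGC (22.6% and 14.0%). CACTGC (19.4% and 10.9%), GTGTGA (19.4% and 10.9%), ACAGCT (19.3% and 11.1%) and TATCGA (21.1% and 13.0%) made up the first 10. Many of these overlap. AGTGTG and its fellow word CACTGC each share bases with the leading word. GTGTGA lies within motif 1, and the leading word and AGTGTG can run into motif 1, as in RpL27. CGATAG as well as its neighbour TATCGA can run into the DRE, and ACAGCT into the E-box. Words taken from the same windows are thus not separate findings. TATAAA had the largest deficit, 18.4% against 28.5%.

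The overlap of ACACTG with CAACAC was followed as the 8-base word CAACACTG, which was chosen after these values were seen. Within 100 bp of the summit it occurred at 51 of 674 single-promoter peaks (7.57%, Wilson interval 5.80 to 9.81) and at 54 of 683 divergent peaks (7.91%). It occurred at 14 of 1056 peaks away from promoters (1.33%, interval 0.791 to 2.21) and at 14 of 1423 lower-ranked candidates at single promoters (0.984%, interval 0.587 to 1.64). With the strongest regions of each replicate the share at single promoters was 7.90% and 5.77%. The intervals of both promoter classes overlapped each other, and neither overlapped those of the distal peaks and of the background. The word was built from words in excess at these same single-promoter peaks, so this separation is not independent evidence. At 30 of the 51 (58.8%) the word was within 25 bp of the summit, against 3 of 14 in the background. The 51 peaks had a median position of -34 bp, with 43 upstream, and a median signal value of 131.5, close to the 134.3 of all. Because the word was sought around the summit, these distances and positions favour summits near it and only describe the peaks. In the sequence of RpL23A given above the word stands on the reverse strand from base -98, 40 bp upstream of the summit. By signal, 5.78% of the strongest 225 peaks carried it, 8.93% of the middle 224 and 8% of the weakest 225.

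The limits of the rule fell within a continuous series of peaks. Just inside the 250 bp window lay Lpin and jigr1 at -250 bp (signal values 146 and 195) and CG46491 at -249 bp (108), and just outside it Usp10 at -251 bp (103), eIF2beta at 251 bp (127) and asRNA:CR45396 at -252 bp (106). Farthest upstream after these were lobo (-249 bp, signal value 156) and Dp (-248 bp, 103). The farthest downstream were CG31715 (237 bp), Eip75B (236 bp), lncRNA:CR45325 (231 bp), snRNA:7SKa (228 bp) and lncRNA:CR45365 (221 bp). Of these only snRNA:7SKa was strong, at ranks 42 and 72 of the replicates. For the partner distance, CG1910, kmr and CG11961 counted as single with an opposite TSS at 1001, 1003 and 1007 bp, and RpS7, hts and lama with CG46456 as divergent at 1000, 999 and 997 bp.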

How the data were processed

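Peak lists of ChIP-seq from 2 replicates of 1 group were used as deposited. Per the file headers and read-me texts, the authors called candidates for each replicate and for the pool, each with a control alignment on dm6, and kept as reproducible those passing an irreproducible discovery rate cutoff. The aligner, the peak caller and the depth are not given in the sources here, so intervals cover counting over regions only. The signal value is the authors', with no stated scale, and ranks regions within a list only. The deposited -log10 q-value was not used. The deposited summit offset (an interval coordinate in bp, unit other) gave each summit.

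TSS came from the Ensembl annotation (release 115, BDGP6.54) on the main chromosomes without transposable elements, and sequence from the RefSeq genome of Release 6. Coordinates are 1-based dm6. Promoter sequence from 2R is not printed. The background regions were the 1423 single-promoter candidates below rank 15000 of the pooled list, none of which overlaps a reproducible peak. Replicate regions were matched within 200 bp, and each replicate was also analysed by its 2413 strongest regions. Shares were compared by Fisher's exact test (two-sided), and p-values of the 23 motifs were adjusted by the Benjamini-Hochberg method. The code was tested on simulated data (Python 3.11.15, scipy 1.17.1, pandas 2.3.3). Regions are the units of every p-value.

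The promoters, the 26 gene lists, the motifs and the tests were chosen with earlier results of these data known. Named were the 25 strongest peaks, up to 4 per gene list by signal value, BuGZ, the 5 farthest from the TSS on each side, the 3 nearest each limit of the rule, every motif and the first 10 words. The remaining ribosomal protein genes, Ldh, lncRNA:CR46036 and the word CAACACTG were picked out after their values were seen. Alternatives were other windows and partner distances, protein-coding TSS only, interval middles, the stronger part of the list, each replicate alone, other backgrounds and other motif windows.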

Additional observations from a re-analysis of the deposited data

How the results depend on the processing

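The upstream share kept its direction and its side of the threshold under all 12 alternatives, from 67.5% to 78.5%. With all other candidates as background, 56.7% of the background was upstream, rather than 50.3%, so the difference was smaller. The comparisons of signal rank and of shared rank with divergent peaks passed no threshold under any alternative run (lowest p 0.0574 by Fisher's exact test, with the 100 bp window). The number of single-promoter peaks was 413 with a window of 100 bp and 338 above the middle rank of the list, and lay between 546 and 854 under the others. The number of motifs that differed from divergent peaks was 8 in the report, 4 with the 100 bp window, 2 above the middle rank and 4 with a motif window of 50 bp, and from 6 to 9 otherwise. The GAGA letters were past the threshold in all 11 alternatives, and the initiator in the 9 that could change its count, while the palindrome of nuclear respiratory genes lost its call in 6 of 11, the AT-rich word in 5, the BEAF-32 core site in 3, and the DRE, motif 7 and the CA repeat in 2 each. The sets of the 100 bp window and above the middle rank hold fewer peaks. Why calls were lost was not tested for any of these settings. The share of ribosomal protein genes with a peak ran from 47.5% to 67.8%, and with 1 replicate left out from 50% to 60%. The depth behind the lists is unknown here, and no rule for outlying samples applies to a group of 2.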
